A study of Mus musculus with 2 samples.

Results

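The complement genes examined in tumour-infiltrating M-MDSCs were the C1q subunit genes C1qa, C1qb and C1qc, the component genes C3, Cfb and Cfp, and the anaphylatoxin receptor genes C3ar1 and C5ar1. They are 8 of the 20653 mouse genes that could be named on the array. Members were found by the RefSeq transcript given for each probe that was not a control, which yielded 9 of 27223 named probes, with 2 probes for C3 and 1 for each other gene. M-MDSCs, monocytic myeloid-derived suppressor cells, are immature myeloid cells that restrain T cells in tumours. Female BABL/c mice, starved for 1 day beforehand, received 1000000 cells of the mammary carcinoma line 4T1 under the skin and were then kept for 16 days on a normal-salt diet (NSD, chow of 0.4% NaCl with tap water) or a high-salt diet (HSD, chow of 4% NaCl with water of 1% NaCl). Both groups thus carried the same tumour line and differed in the salt of food and water, and the labels give no age. The chows also differed in corn, soybean meal, gluten meal and oil. The paper reports that HSD mice ate and drank more and had smaller tumours. M-MDSCs (CD11b+Ly6-C+ in the methods) were taken from the tumours with a cell isolation kit, equal numbers of cells were mixed within a diet, and the RNA, labelled with Cy3, was hybridised to 1 array for each diet. No test of the diet was possible with 1 array per group, so the values below compare 2 pools of cells.

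Complement is a cascade of plasma proteins that marks microbes, immune complexes and dying cells for uptake and lysis. The classical pathway starts when C1q, built from A, B and C chains encoded by separate genes, binds antibody or a cell surface and activates the proteases C1r and C1s. All pathways meet at C3, whose cleavage is amplified by the alternative pathway enzyme factor B (Cfb) and stabilised by properdin (Cfp). The small fragments C3a and C5a are anaphylatoxins, which act on myeloid cells through the receptors C3aR (C3ar1) and C5aR1 (C5ar1). Most complement proteins of plasma come from the liver, whereas C1q is made chiefly by macrophages and dendritic cells, and neutrophils store properdin and C3.

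In the HSD group, 4 of the 8 genes were lower than in the NSD group by 1.5-fold or more and none was higher by as much. C1qc was 8.65-fold, C3ar1 3.73-fold and Cfb 1.67-fold lower. C1qa was lower by a nominal limit of 2.56-fold, set without spot error, so its place among them is unknown. The other 4, C1qb, C3, Cfp and C5ar1, differed by less than 1.5-fold on their brightest probe. Across all 16312 genes with a fold change, 10.3% were lower and 9.86% higher by this measure. The median log2 fold change of the 8 members was −0.64, against 0.045 over all these genes. Log2 fold changes are HSD minus NSD, so negative values mean less signal under high salt, and each array was first scaled to its 75th percentile, which multiplied the HSD signals by 1.08. In bulk RNA of this kind, fewer cells of a type and less RNA per cell cannot be told apart.

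**Figure D1:**
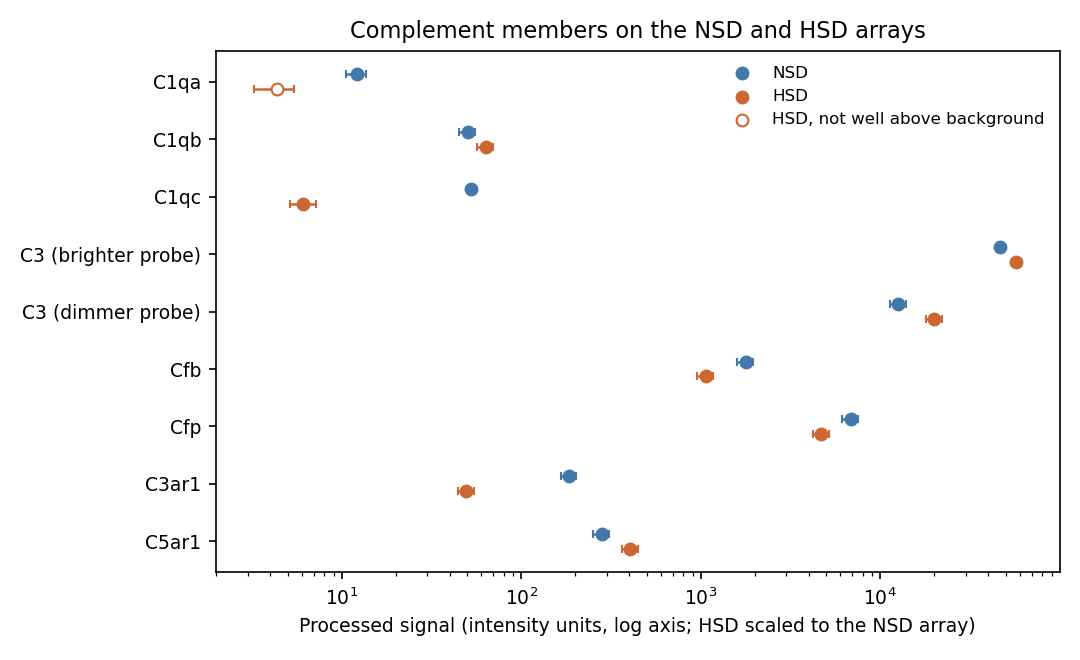
Processed signal of each member probe in intensity units on a log axis, with the HSD signals scaled to the NSD array. Bars are the SD between spots for C1qc and the brighter C3 probe, and the error given by the scanner software for the probes with 1 spot. C1qc and C3ar1 show the widest gaps between the diets, and the open circle is C1qa under HSD, not well above background.

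Sequence upstream of a gene's start is shown for 2 members that were lower in the HSD group, C1qc and C3ar1, and for 2 that were not past 1.5-fold, C1qb and C3, so that members on both sides of the threshold can be compared. The 250 bases before the annotated start, from the RefSeq promoter table of mouse build GRCm38.p6, lie on the minus strand at chr4:136892915-136893164 for C1qc, chr4:136886201-136886450 for C1qb, chr6:122856158-122856407 for C3ar1 and chr17:57228137-57228386 for C3. Of the 8 members, 6 matched an entry of that table. Capitals mark matches on either strand to the PU.1 core GAGGAA, the MAF core TGCTGA, the C/EBP motif TTGCNNAA, the AP-1 motif TGANTCA and the STAT motif TTCNNNGAA, which were chosen as binding motifs of factors active in myeloid cells.
C1qc: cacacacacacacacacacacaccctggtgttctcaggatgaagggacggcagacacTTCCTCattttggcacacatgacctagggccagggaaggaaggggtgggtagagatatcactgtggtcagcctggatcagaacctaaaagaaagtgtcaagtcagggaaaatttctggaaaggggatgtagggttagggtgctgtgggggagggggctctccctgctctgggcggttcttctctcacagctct
C1qb: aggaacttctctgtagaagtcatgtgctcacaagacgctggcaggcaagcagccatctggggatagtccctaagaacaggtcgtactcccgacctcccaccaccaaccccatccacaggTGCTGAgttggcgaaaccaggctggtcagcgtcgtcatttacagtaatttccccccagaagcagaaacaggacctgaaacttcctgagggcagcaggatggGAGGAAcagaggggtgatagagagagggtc
C3ar1: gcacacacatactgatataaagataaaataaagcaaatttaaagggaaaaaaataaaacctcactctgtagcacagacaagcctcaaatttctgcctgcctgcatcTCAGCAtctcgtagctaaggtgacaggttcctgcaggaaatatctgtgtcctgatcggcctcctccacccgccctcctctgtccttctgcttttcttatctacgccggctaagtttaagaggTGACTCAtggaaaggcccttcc
C3: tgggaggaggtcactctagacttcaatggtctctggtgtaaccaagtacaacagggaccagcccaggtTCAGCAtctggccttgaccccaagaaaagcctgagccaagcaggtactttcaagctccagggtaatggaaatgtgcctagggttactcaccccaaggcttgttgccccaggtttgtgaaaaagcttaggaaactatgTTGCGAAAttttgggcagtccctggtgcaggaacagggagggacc
The windows of C1qc and C1qb each held 1 PU.1 core, a motif found in 23.3% of all 32851 windows of this length in the table. The MAF core was found in those of C1qb, C3ar1 and C3, and in 16.1% of all windows. The C3 window also held 1 C/EBP motif (9.56% of all windows), 45 bases before the start, and the C3ar1 window 1 AP-1 motif (6.75% of all windows), 22 bases before the start. The STAT motif, present in 7.02% of all windows, did not occur in these 4. The matches are descriptions of sequence and the arrays do not measure binding at them.

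The C1q subunit genes did not move together. C1qc, the C chain gene, was printed in 10 spots on each array. On the NSD array its spots ran from 48.8 to 55.9 intensity units with a median of 52.5. On the HSD array the 9 spots not flagged as outliers ran from 3.94 to 6.79 with a median of 5.86, and 8 of them were well above background. The spots of the arrays did not overlap, with HSD spots at 4.26 to 7.35 after scaling. The log2 fold change of −3.11 stood against an SD between spots of 0.075 under NSD and 0.24 under HSD, which measures printing and hybridisation within an array and not the spread between mice.

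C1qa, the A chain gene, read 12.2 ± 1.56 intensity units under NSD and 4.01 ± 1.01 under HSD, where the error is that of the scanner software for a single spot. The HSD spot was not called well above background, and the fold change was therefore taken as a lower limit, against 4.39, the dimmest signal that array still placed well above background. This gave a nominal limit of 2.56-fold lower, a log2 fold change of −1.36. The limit leaves out the error of 0.41 from both spots, so a smaller difference is possible. C1qb, the B chain gene, read 50.4 ± 5.16 under NSD and 58.4 ± 5.95 under HSD, and its log2 fold change was 0.33 with an error of 0.21 from both spots. C1qb thus differed in direction from both other chains, although the 3 genes lie next to each other on chromosome 4 with no other annotated gene between them, in the order C1qb, C1qc and C1qa. Each of C1qa and C1qb had 1 probe in a single spot, so no second probe could be set beside either. With normexp background correction and its offset of 50 added to every signal, the log2 fold change of C1qc was −0.74 and the limit for C1qa was −0.074, below 1.5-fold. Without the offset they were −2.32 and −0.73, both past 1.5-fold. The cause of the difference between the chains was not tested.

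**Figure D2:**
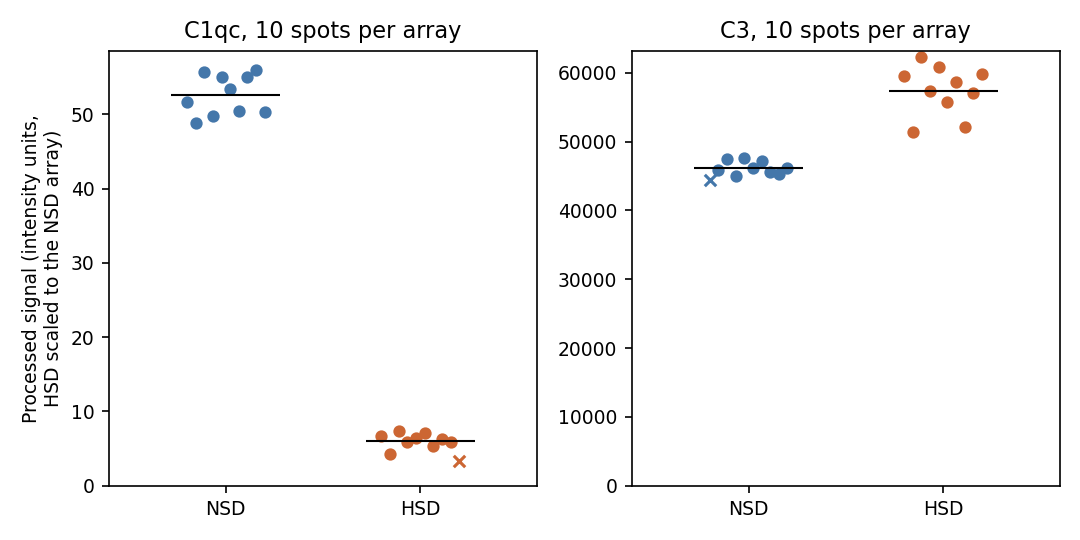
Processed signal of every spot of C1qc (left) and of the brighter C3 probe (right), in intensity units from 0, with the HSD signals scaled to the NSD array. Crosses are spots flagged as outliers and left out, and lines are means on the log2 scale. The C1qc spots of the HSD array lie between 4.26 and 7.35, far below the NSD spots, whereas the C3 spots of the HSD array lie just above those of the NSD array.

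C3, Cfb and Cfp encode proteins of the alternative pathway and its amplification. C3, the central component, gave strong signals on both arrays. Its brighter probe, printed in 10 spots, ran from 44936 to 47579 intensity units with a median of 46090.2 over the 9 spots kept on the NSD array, and from 47486 to 57559 with a median of 53599 on the HSD array. The spot ranges overlapped before scaling and did not overlap after it, when HSD spots ran from 51402 to 62306. The log2 fold change was 0.31, or 1.24-fold, with spot SDs of 0.030 and 0.091. The second C3 probe read 12587 ± 1259 under NSD and 18461 ± 1846 under HSD, 1.59-fold more (log2 fold change 0.67). Both probes were thus higher in the HSD group, and they fell on different sides of 1.5-fold. Under cyclic loess the brighter probe had a log2 fold change of 0.16.

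Cfb, the gene of the factor that forms the alternative pathway convertase with C3b, read 1778 ± 178 under NSD and 984 ± 98.4 under HSD. Its log2 fold change was −0.74. Cfp, the properdin gene, read 6829.55 ± 683 under NSD and 4342 ± 434 under HSD (log2 fold change −0.54, 1.45-fold lower). Both genes were lower in the HSD group, and Cfp lay close to the threshold. It was past 1.5-fold with quantile normalization (log2 fold change −0.62), cyclic loess (−0.64), the deposited log2 values (−0.62) and normexp correction with the offset (−0.65) and without it (−0.64). Cfd, which encodes the protease that cleaves factor B, was dim on both arrays.

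The anaphylatoxin receptor genes went in opposite directions. C3ar1 read 185 ± 18.5 under NSD and 45.7 ± 4.71 under HSD, and its log2 fold change was −1.90 with an error of 0.21 from both spots. C5ar1 read 280 ± 28 under NSD and 375 ± 37.5 under HSD, and its log2 fold change of 0.53, 1.45-fold, was below the threshold. C5ar2, the gene of the second receptor for C5a, had 2 probes, with log2 fold changes of 0.092 on the brighter and −0.37 on the other. The lower signal of C3ar1 was past 1.5-fold under every other setting tried, with log2 fold changes between −1.94 and −1.17, and the value nearest 0 came from normexp correction with the offset. C5ar1 stayed below 1.5-fold under the same settings, between 0.46 and 0.56.

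The wider cascade was described with lists of 58 complement genes, of which 57 had a probe and 42 a fold change. The other 15, dim (not well above background) on both arrays, included C9, Mbl2, C4bp, Vtn and Cfi, known as liver products. Of the 42, 5 were past 1.5-fold higher under HSD and 8 past 1.5-fold lower. Their median log2 fold change was 0.091, against 0.045 over all genes. Without the 8 members, 5 of 34 were higher and 4 lower. The shares of these 34 that were past 1.5-fold lay near those over all genes for lower signals, 11.8% against 10.3%, and at 14.7% against 9.86% for higher ones.

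In the classical pathway, the protease genes C1s2 and C1s1 were higher by 1.89-fold and by a nominal limit of 1.74-fold. The signals of C1s2 were 10.6 and 18.5 on its brighter probe, and its other probe had a log2 fold change of −0.20. C1s1 read 8.23 under HSD and 5.12 under NSD, too dim there to be called well above background. Its limit is the measured ratio, a log2 fold change of 0.80 with an error of 0.42 from both spots. Signals this low lay close to the limit of detection, and the mouse copies of C1r, C1s and Cd55 are similar enough that probes may share signal between copies. C1ra, C1rb, C2 and C4b were below 1.5-fold, with log2 fold changes from −0.49 to 0.20. No lectin pathway gene was past 1.5-fold higher, and Colec12, a scavenger receptor with a collectin domain, was 1.91-fold lower, from 671 to 325.

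Hc, the gene of complement C5 and the source of C5a, had the highest fold change among the listed complement genes that were higher under HSD. Its single probe read 46.6 intensity units under NSD and 202 under HSD (log2 fold change 2.23). Of the other terminal pathway genes with a fold change, C6, C7 and C8g lay between −0.37 and 0.14, and C8a, not well above background under HSD, had a limit of −0.40. Among the regulators, Cd55, whose product speeds the decay of the C3 convertase on cell surfaces, was 1.56-fold higher, from 1380 to 1994. Cr1l, the gene of the mouse membrane regulator Crry, had 4432 and 3296 (log2 fold change −0.31). Serping1, Cd59a, Clu and Susd4 lay between −0.15 and 0.18, and Cd46, not well above background under HSD, had a limit of −0.43. Cd55b had 0.32 on its brighter probe and 0.83, past 1.5-fold, on the other.

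Among the receptor genes, Cd93, once described as a C1q receptor, read 2900.2 under NSD and 1211 under HSD, 2.21-fold lower. Lrp1, an uptake receptor that works with calreticulin in clearing C1q-coated cells, was 1.81-fold lower, from 248 to 127. Calr, the calreticulin gene, and C1qbp, which encodes a protein named for binding the globular heads of C1q, were 1.47-fold lower each, below the threshold. The integrin genes of complement receptors for iC3b went the other way or differed little. Itgax, the alpha chain of complement receptor CR4, was 1.67-fold higher, from 173 to 267, Itgb2, the shared beta chain, 1.45-fold higher, and Itgam, the alpha chain of CR3, 1.06-fold higher on its brightest probe. Cr2 had log2 fold changes of 0.57 and 0.78 on its 2 probes.

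**Figure D3:**
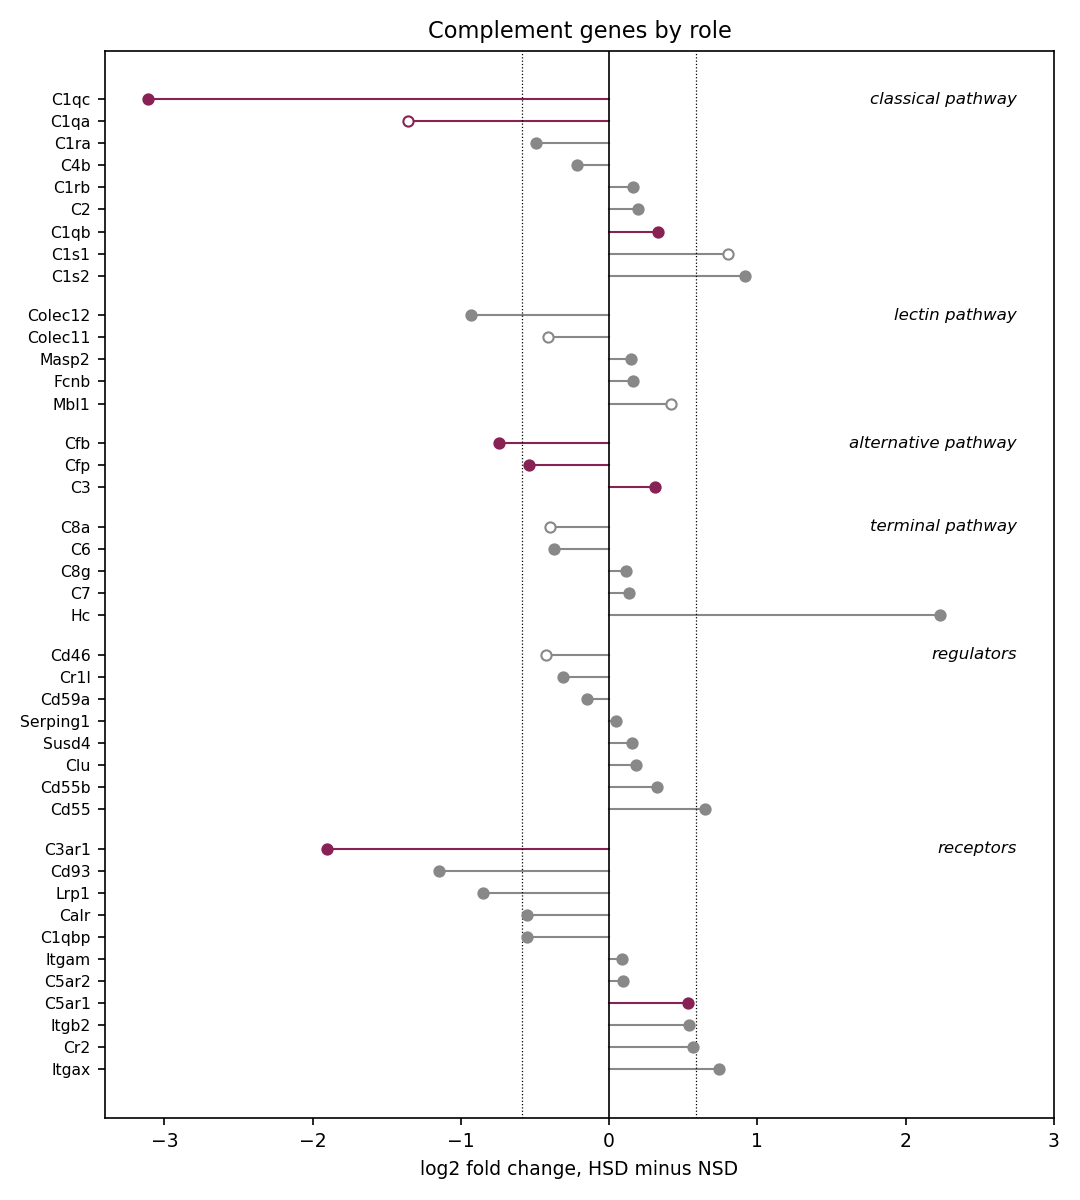
Log2 fold change (HSD minus NSD) of listed complement genes with a fold change, grouped by role, with members in purple and other genes in grey. Open circles are lower limits for genes not well above background on one array, and dotted lines mark 1.5-fold. C1qc and C3ar1 lie farthest to the left at −3.11 and −1.90, and Hc farthest to the right at 2.23.

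Markers of other cell types were set beside the members. Of 15 macrophage markers, 13 had a fold change. Under HSD 10 of these were past 1.5-fold lower and none past 1.5-fold higher, and their median log2 fold change was −1.70. The summed signal of the list was 45610.4 under NSD and 28408 under HSD after scaling. Mrc1, the mannose receptor, had signals of 134 and 5.49 (log2 fold change −4.50), Fcgr1, the high-affinity IgG receptor, 305 and 21.9 (−3.68), and Mertk, a receptor for dying cells, 95.9 and 15.4 (−2.52). The transcription factor gene Maf had a log2 fold change of −2.30. Adgre1, a surface marker, and Csf1r, the receptor of macrophage growth factor, were not past 1.5-fold, with −0.55 and −0.37, Lyz2 had 0.19, and Cd163, a scavenger receptor, was dim on both arrays. The 10 lower markers went in the same direction as C1qa, C1qc, Cfb and C3ar1, and their part in those values was not tested.

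The cell type on the label was checked as well. Ly6c1 and Itgam encode the antigens Ly6-C and CD11b that define M-MDSCs in the methods. Ly6c2, the other Ly6-C gene on the monocyte list, had no named probe. On their brightest probes Ly6c1 and Itgam read 51811 and 31564 under NSD, and 48478 and 31043 under HSD. The dimmer Ly6c1 probe read 4649 under NSD and 3210 under HSD (log2 fold change −0.42), and the other Itgam probes had 0.073 and 0.47. Of 11 monocyte markers, Cd14, Cx3cr1 and Chil3 were past 1.5-fold higher and Ccr2 past 1.5-fold lower, and the median log2 fold change was 0.018. All 12 neutrophil markers with a probe were well above background on both arrays, with signals from 1606 to 61817 under NSD and from 1412 to 59919.5 under HSD. The granule peptide gene Camp read 61817 and 59919.5, and S100a8 57914 and 56478. A signal depends on the probe as well as the transcript, so these levels give no share of cells. The summed neutrophil signal was 384764 under NSD and 404456 under HSD after scaling, and 1 of 12, Mpo, was past 1.5-fold, at 1.90-fold lower. Neutrophils and monocytes are both known to express Cfp and C5ar1, and the share of each cell type in the signal of these genes was not tested. Markers of epithelial cells, for carcinoma cells, summed to 288 under NSD and 281 under HSD after scaling, with 3 of 9 past 1.5-fold higher and Krt19 dim on both arrays. Those 3, Krt8, Krt18 and Epcam, had low signals, 8.68, 15.9 and 14.5 under NSD and 12.2, 25.0 and 21.8 under HSD. The fibroblast markers summed to 393 and 379.8, with 3 of 7 past 1.5-fold lower and 1 higher, and Lum, Pdgfra and Postn dim on both arrays. The median log2 fold changes of the dendritic cell, T and NK cell, B cell, endothelial and erythroid markers were 0.062, −0.099, 0.33, 0.055 and −0.053. Of the dendritic cell markers 2 were past 1.5-fold higher and 2 lower. Of the T and NK cell markers 2 were lower, Il7r (−1.80) and Cd3e (−1.09), and none higher. The endothelial marker Kdr had 0.28 on its brighter probe and −2.49 on the other, which was printed in 10 spots.

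**Figure D4:**
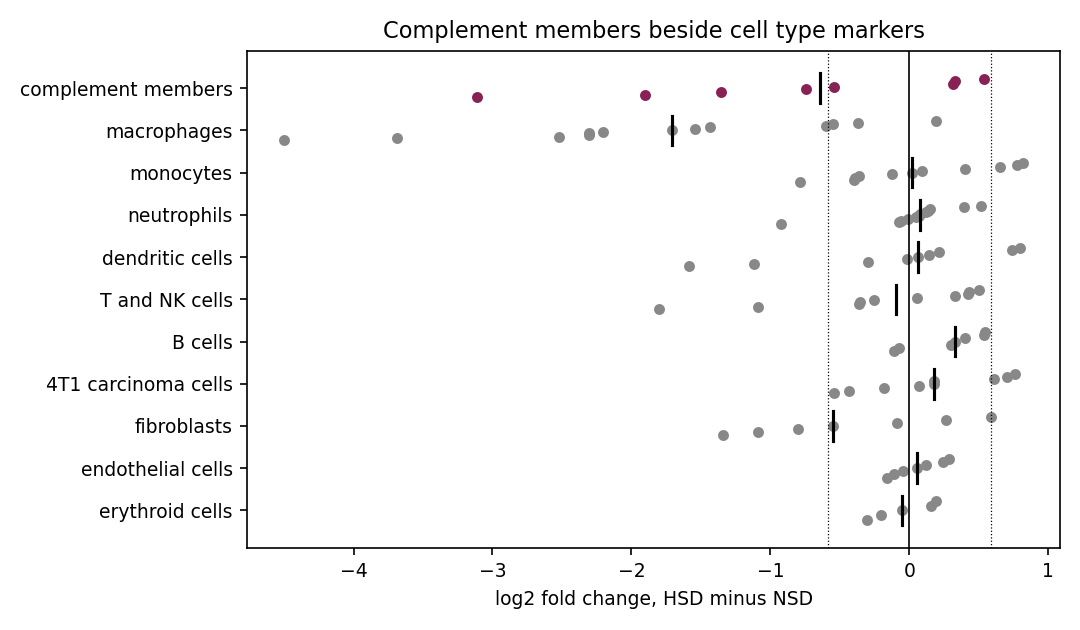
Log2 fold change (HSD minus NSD) of the 8 complement members (purple) and of markers of 10 cell types (grey), each point a gene with a fold change, with black bars for medians and dotted lines at 1.5-fold. The macrophage markers have a median of −1.70, and the monocyte and neutrophil markers medians of 0.018 and 0.074.

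**Figure D5:**
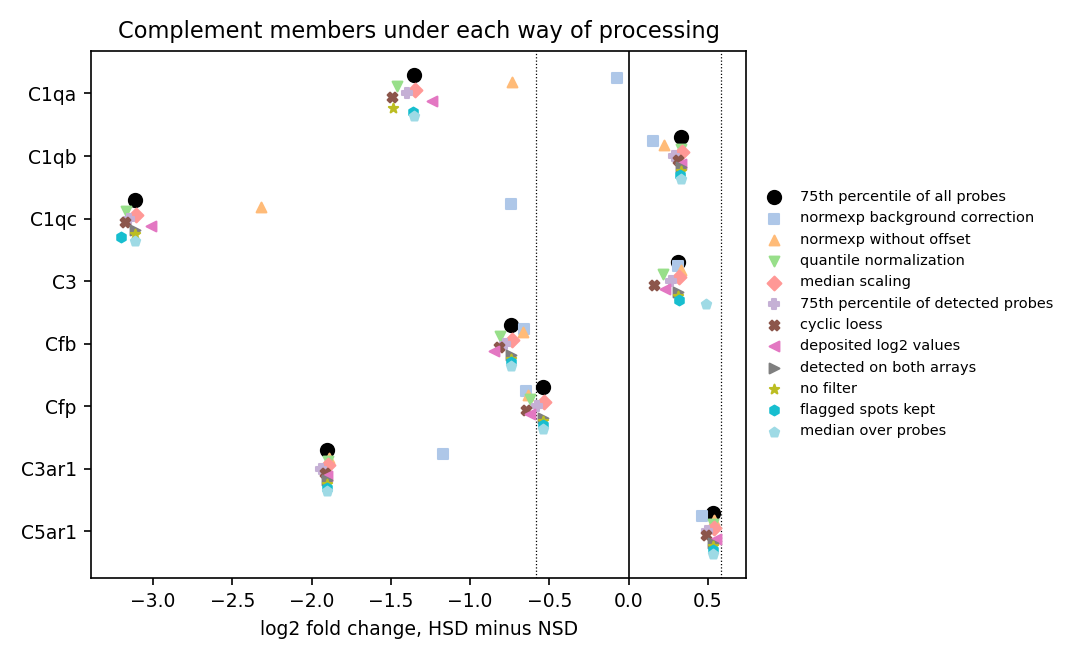
Log2 fold change (HSD minus NSD) of each member under 12 ways of processing the arrays, with dotted lines at 1.5-fold. Values of C1qa are lower limits except without a filter on dim probes. Normexp correction with an offset of 50 puts C1qc at −0.74 and C1qa at −0.074, against −3.11 and −1.36 in the main setting. No setting moves a member across 0, which the limits of C1qa could not do by construction.

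The sizes for C1qc and C1qa depended on the normexp correction and more on its offset, which is several times their HSD signals. Over the settings without normexp correction, the log2 fold change of C1qc lay between −3.20 and −3.01, and the limit or, without a filter, the value of C1qa between −1.49 and −1.24. C1qa had no fold change when only probes well above background on both arrays were kept. Cfb, whose signals were well above background on both arrays, lay between −0.85 and −0.66 under all settings including both forms of normexp correction. No member changed direction under any of these settings. For C1qa a limit could not do so, since a limit of the opposite sign would have been left out. Its value without a filter was −1.49.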

How the data were processed

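Per the file headers, Agilent Feature Extraction 11.0.1.1 made the deposited processed signal, an intensity with background subtracted and spatial trends corrected, without normalization between arrays. The authors also deposited log2 values normalized in GeneSpring, with no method named. Their sorted values differed between the arrays by at most 0.052, and they served as an alternative.

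Control spots and the 162 (NSD) and 179 (HSD) flagged spots were left out, log2 signals were averaged per probe and scaled to the 75th percentile (252 and 233 intensity units), and a gene took its probe with the highest mean log2 signal. Probes were well above background where at least 50% of their spots were. Where 1 array was dim, the fold change was a nominal lower limit. It was taken against the higher of the probe's own signal there and the lowest signal well above background (4.61 and 4.39). These limits leave out the error of the spots, and genes dim on both arrays got none. RefSeq transcripts of GRCm38.p6 named 27223 of 39413 probes (69.1%). All members, complement genes past 1.5-fold and a selection of the listed markers were named, and some results are not reported here. The array design was annotated on another build, so no probe positions are given, and the coordinates of the promoter windows are those of GRCm38.p6. Members, lists and motifs were chosen with earlier results of these data known. The calculation of fold calls was checked on simulated arrays with known changes, which is no test of the diet. With 1 array per diet there was no test, and precision is bounded by the 2 arrays. Computations ran in Python 3.11.15 (numpy 2.4.6, pandas 2.3.3) and, for the alternatives, limma 3.58.1 in R 4.3.3. Alternatives covered background correction, scaling, the filter, flagged spots, the probe rule and the threshold, plus the second C3 probe and normexp without its offset of 50, both added after the data were seen.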

Additional observations from a re-analysis of the deposited data

How the results depend on the processing

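The count of members at least 1.5-fold lower was 4 or 5 of 8 under the other settings that kept this threshold and all members. It was 3 of 7 where only probes detected on both arrays were kept, and 3 of 8 at a 2-fold threshold. The count of higher members was 0 in each of these settings. On its second probe C3 was 1.59-fold higher, past 1.5-fold, and no count was made for that setting. The median log2 fold change of the C1q subunits, −1.36, is the value of C1qa and so a limit. It was −0.074 with normexp correction and an offset of 50, and −0.73 without the offset, an alternative chosen after seeing the data, again as limits from C1qa. In the other settings it lay between −1.49 and −1.24, a measured value where no filter was used (−1.49) and a median of C1qb and C1qc alone where only probes detected on both arrays were kept (−1.39). Complement genes at least 1.5-fold higher, 5 in the main setting, numbered 3 with normexp correction, 10 without a filter on dim probes and 1 at a 2-fold threshold, which left 5 lower in place of 8. Among all genes, 1608 were higher and 1682 lower, against 625 and 655 with normexp correction and the offset, 1297 and 1532 without the offset, 2903 higher without a filter, and 428 and 681 at 2-fold. Of these calls 48.9% were higher, and 38.5% with cyclic loess. Of the values of single members under the other settings, 80 moved by less than their spot error and 8 by more. Some of the 80 could not move. Changing the filter on dim probes left the values of all members but C1qa as they were. Taking the median over probes left those of all members but C3 as they were. The brighter C3 probe moved from 0.31 to 0.16 with cyclic loess, and C3 to 0.49 as the median over probes and 0.67 on its second probe, a setting chosen after seeing the data. The offset made up part of the move of C1qc and C1qa under normexp correction, and the cause of the rest was not tested. Signals near the limit of detection, as for C1qa and C1qc in the HSD group, have the widest errors. No paired analysis was possible because each diet has 1 array.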

Other observations

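C1q belongs to a wider family of proteins that share its globular head. Of 18 genes of that family and of related matrix proteins, chosen after the member values had been seen, 12 had a fold change. None was past 1.5-fold higher under HSD and 1, or 8.33%, was past 1.5-fold lower. Over all genes these shares were 9.86% and 10.3%. The median log2 fold change of the 12 was −0.074. The lower gene was C1qtnf4, which read 14.5 intensity units under NSD and 6.02 under HSD (log2 fold change −1.15). Emilin2, an extracellular matrix glycoprotein with a C1q-type domain, had the strongest signals of the list, 6926 and 8857, a log2 fold change of 0.47. C1qtnf12 had 419 and 412 (log2 fold change 0.089).

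Pentraxins are pattern recognition proteins that can engage C1q. Of 5 pentraxin genes, Crp, Nptx1 and Nptx2 were not well above background on either array. Ptx3 had signals of 5.59 and 5.96 and a log2 fold change of 0.21. Apcs was too dim under HSD to be well above background. Its nominal limit was 1.22-fold lower (log2 fold change −0.28), with an error of 0.51 from both spots.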
